A study of Homo sapiens with 12 samples.

Results

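The genes described here encode amino acid transporters of the plasma membrane and lysosome, taken as every gene symbol on the Affymetrix U133 Plus 2.0 array that begins with SLC1A, SLC3A, SLC6A, SLC7A, SLC36A, SLC38A or SLC43A and has a probe set annotated to it alone. The rule matched 62 symbols, of which 56 are transporter genes and 6 are antisense or opposite-strand genes, among 19775 genes with a probe set of their own. Of the 56 transporter genes, 44 were at or above the array median in at least 2 of the 12 arrays and were tested, together with the other genes that did so, 14283 in all. The SLC6A family includes carriers of taurine, creatine, betaine and transmitter amines as well as of protein amino acids, and these were kept apart.

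The study used RCC4 and UMRC2, established human kidney cancer cell lines that the submitters describe as low in FoxO1 and FoxO3 of their own. On these arrays, in EV with vehicle, the FOXO1 probe set stood at a log2 level of 6.46 in RCC4 and 6.78 in UMRC2. These are near the array median of 6.67, and the FOXO3 probe set stood at 10.38 and 11.65. They are transcript levels on probe sets not comparable between genes, and no array of normal kidney was there as a reference. Each line had been given stably, under puromycin selection, an ERT2 construct without FoxO (EV), FoxO1(TA)ERT2 or FoxO3(TA)ERT2; in the TA forms alanine replaces the residues that AKT phosphorylates, and ERT2 is a modified estrogen receptor domain that holds the fusion in the cytoplasm until 4-hydroxytamoxifen (4OHT) is added. Each of the 6 engineered lines was hybridised once after 12 h with vehicle (ethanol) and once after 12 h with 100 nM 4OHT, which gave 12 arrays and 1 array per combination. A response is the log2 level with 4OHT minus the log2 level with vehicle in 1 engineered line; an effect of FoxO is the response of a fusion line minus that of EV. The 2 cell lines were the only replicates of a construct, so the p-values of the construct comparisons measure the spread between these cultures, and the labels do not name clones or independent cultures.

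Cells take up amino acids through carriers with overlapping substrates. Light chains of the SLC7A family reach the plasma membrane only when paired with an SLC3A heavy chain, and most of them exchange one amino acid for another, while SLC38A, SLC1A and SLC6A carriers use the sodium gradient to load the cell with glutamine, glutamate and other exchange substrates. In the kidney tubule several of these genes serve the reabsorption of filtered amino acids, and in cancer cells SLC7A5, SLC3A2, SLC1A5 and SLC7A11 are known for the supply of leucine, glutamine and cystine. Transcription of many transporter genes is known to respond to amino acid shortage through ATF4, which binds a C/EBP-ATF response element, and to MYC, which binds E-boxes.

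Of the 8 transporter genes called in FoxO3 against EV below, 6 had an entry in the RefSeq promoter table (GRCh38.p14; 250 bases before and 50 after an annotated gene start, 5′ to 3′ in the direction of the gene), and 4 of these 6 held a match to 1 of the motifs searched on both strands. Those 4 windows are printed because they belong to genes that fell with FoxO3, with the match in capitals: the response element TGATGNAA or its reverse complement in the first 3, and the E-box CACGTG in the last. They lie at chr2:64989149-64989448 (plus strand) for SLC1A4, chr11:62881449-62881748 (plus strand) for SLC3A2, chr13:29595639-29595938 (minus strand) for SLC7A1 and chr16:87869458-87869757 (minus strand) for SLC7A5.
SLC1A4: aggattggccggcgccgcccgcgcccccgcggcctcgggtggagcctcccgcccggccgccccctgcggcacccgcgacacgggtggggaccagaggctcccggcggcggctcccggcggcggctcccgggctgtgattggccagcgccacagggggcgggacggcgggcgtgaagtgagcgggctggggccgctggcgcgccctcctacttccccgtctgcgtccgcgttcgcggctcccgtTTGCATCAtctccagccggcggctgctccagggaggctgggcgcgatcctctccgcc
SLC3A2: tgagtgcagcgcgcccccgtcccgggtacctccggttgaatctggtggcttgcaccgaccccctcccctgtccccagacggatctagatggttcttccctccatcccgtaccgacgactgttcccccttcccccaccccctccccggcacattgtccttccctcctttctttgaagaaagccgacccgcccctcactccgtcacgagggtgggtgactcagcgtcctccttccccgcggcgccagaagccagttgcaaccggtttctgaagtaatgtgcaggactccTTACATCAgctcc
SLC7A1: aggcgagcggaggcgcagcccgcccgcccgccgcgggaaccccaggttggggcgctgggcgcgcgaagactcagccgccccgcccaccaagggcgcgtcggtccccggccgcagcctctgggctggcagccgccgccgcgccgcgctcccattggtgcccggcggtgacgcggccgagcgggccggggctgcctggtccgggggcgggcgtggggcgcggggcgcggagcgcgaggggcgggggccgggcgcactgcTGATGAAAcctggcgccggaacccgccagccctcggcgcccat
SLC7A5: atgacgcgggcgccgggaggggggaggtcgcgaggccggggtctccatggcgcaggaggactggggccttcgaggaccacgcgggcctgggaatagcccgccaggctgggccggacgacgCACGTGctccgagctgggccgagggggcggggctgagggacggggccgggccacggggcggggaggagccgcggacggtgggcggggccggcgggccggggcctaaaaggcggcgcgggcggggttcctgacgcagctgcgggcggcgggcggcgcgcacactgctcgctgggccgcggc

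Counted from the 5′ end of each 300-base window, the matches began at base 244 in SLC1A4, 288 in SLC3A2, 258 in SLC7A1 and 121 in SLC7A5. SLC1A4 has 2 windows in the table and SLC3A2 has 3, of which 1 each held the match. TGATGNAA was found in 3.62% of all 35116 windows and in 6 of the 54 windows of the 33 tested transporter genes in the table (11.1%), which belong to SLC1A3, SLC1A4, SLC1A5, SLC38A1, SLC3A2 and SLC7A1. CACGTG was found in 7.26% of all windows and in 10 of the 54 (18.5%), which belong to 10 of the 33 genes. Whether the called genes hold a match more often than the others was not tested. The share of the 33 genes with a match to any of the motifs was not counted. The FoxO site GTAAACA was in 3.42% of all windows and in 2 of the 54 (3.70%), those of SLC1A5 and SLC43A1, and its core GTAAAC, which the site contains, was in 7.20% and in 3 of the 54 (5.56%), with SLC7A8 added. The windows of SLC6A8 and SLC43A2 held none of the motifs. SLC43A3 and SLC6A6 are named without a sequence. The motifs are matches of letters, and binding was not measured.

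Some facts of the arrays touch the results that follow. In the deposited intensities, the geometric mean of 18 bacterial and phage spike-in probe sets lay between 4212 and 4699 on 5 of the 6 RCC4 arrays and between 2239 and 2463 on the 6 UMRC2 arrays. The sixth RCC4 array, FoxO3 with 4OHT, was at 2515, so the RCC4 FoxO3 response was taken between arrays of unequal brightness, whereas the UMRC2 FoxO3 response was not (2389 with vehicle and 2299 with 4OHT). Transcript of the fusion was read from the brightest ESR1 probe set. Without 4OHT this stood in RCC4 at a log2 level of 9.22 with the FoxO1 construct and 12.99 with the FoxO3 construct, in UMRC2 at 12.59 and 13.55, and at 4.67 and 5.51 in the EV lines, which are labelled as carrying ERT2 but were below the array median of 6.67. The FoxO3 fusion transcript was thus more abundant than that of FoxO1 in either cell line, and isoform and amount cannot be told apart. Of 12 measured markers of renal epithelium or clear cell carcinoma, 11 were at or above the array median in at least 2 arrays. PAX8, KRT8, KRT18, VIM, CDH16 and CDH2 were so in every array, while CUBN was below it throughout. EPCAM, MME and NNMT met this rule unevenly, in 6, 6 and 8 arrays. With vehicle, EPCAM had a median level of 4.81 in RCC4 against 10.67 in UMRC2, and NNMT 6.02 against 14.13. MME went the other way, with 7.31 in RCC4 against 6.05 in UMRC2. Of the markers of other cell types, PTPRC and LYZ (leukocytes), CDH5, VWF and KDR (endothelium), STMN2 and RBFOX3 (neurons) and ALB (hepatocytes) were below the median in all 12 arrays. PECAM1 and CD79A were at or above it in all 12, CD3E in 9, TTR in 5, APOA1 in 4 and SYP in 1. Their part in the results was not tested.

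A small group of transporter genes fell after FoxO activation, with the larger effects in the FoxO3 lines. In FoxO against EV, the mean of the FoxO1 and FoxO3 effects, 6 of the 44 transporter genes fell (13.6%) and none rose, where 4.70% of all tested genes fell and 3.09% rose at the same adjusted p (limma, Benjamini-Hochberg over 14283 genes, threshold 0.05). Those that fell were SLC3A2, SLC7A5, SLC7A1, SLC43A3, SLC6A6 and SLC6A8. In FoxO3 against EV, 7 fell and 1 rose, SLC43A2, beside 10.0% and 6.61% of all genes. The added gene among the fallen was SLC1A4. The median effect over the 44 genes was -0.24 in FoxO against EV, with 30 of 44 below 0, and -0.26 in FoxO3 against EV, with 28 of 44 below 0. Over all genes the medians were -0.05 and -0.07, and 54.4% and 54.5% of genes lay below 0. No call in FoxO against EV was kept in every fit that left out 1 engineered line. Such a fit leaves 1 pair of a construct, so a lost call cannot show that the result rests on that line. Over these fits the effect was -0.88 to -0.74 for SLC3A2, -1.11 to -0.70 for SLC7A5 and -1.23 to -0.86 for SLC7A1. For SLC43A3 it was -1.50 to -1.00, for SLC6A6 -1.08 to -0.62 and for SLC6A8 -0.92 to -0.68. With the intensities as deposited, not scaled between arrays, 0 transporter genes were called in FoxO against EV and 4 in FoxO3 against EV. The share of all genes called in that setting is not given. The medians of all genes were then -0.31 and -0.42.

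**Figure D1:**
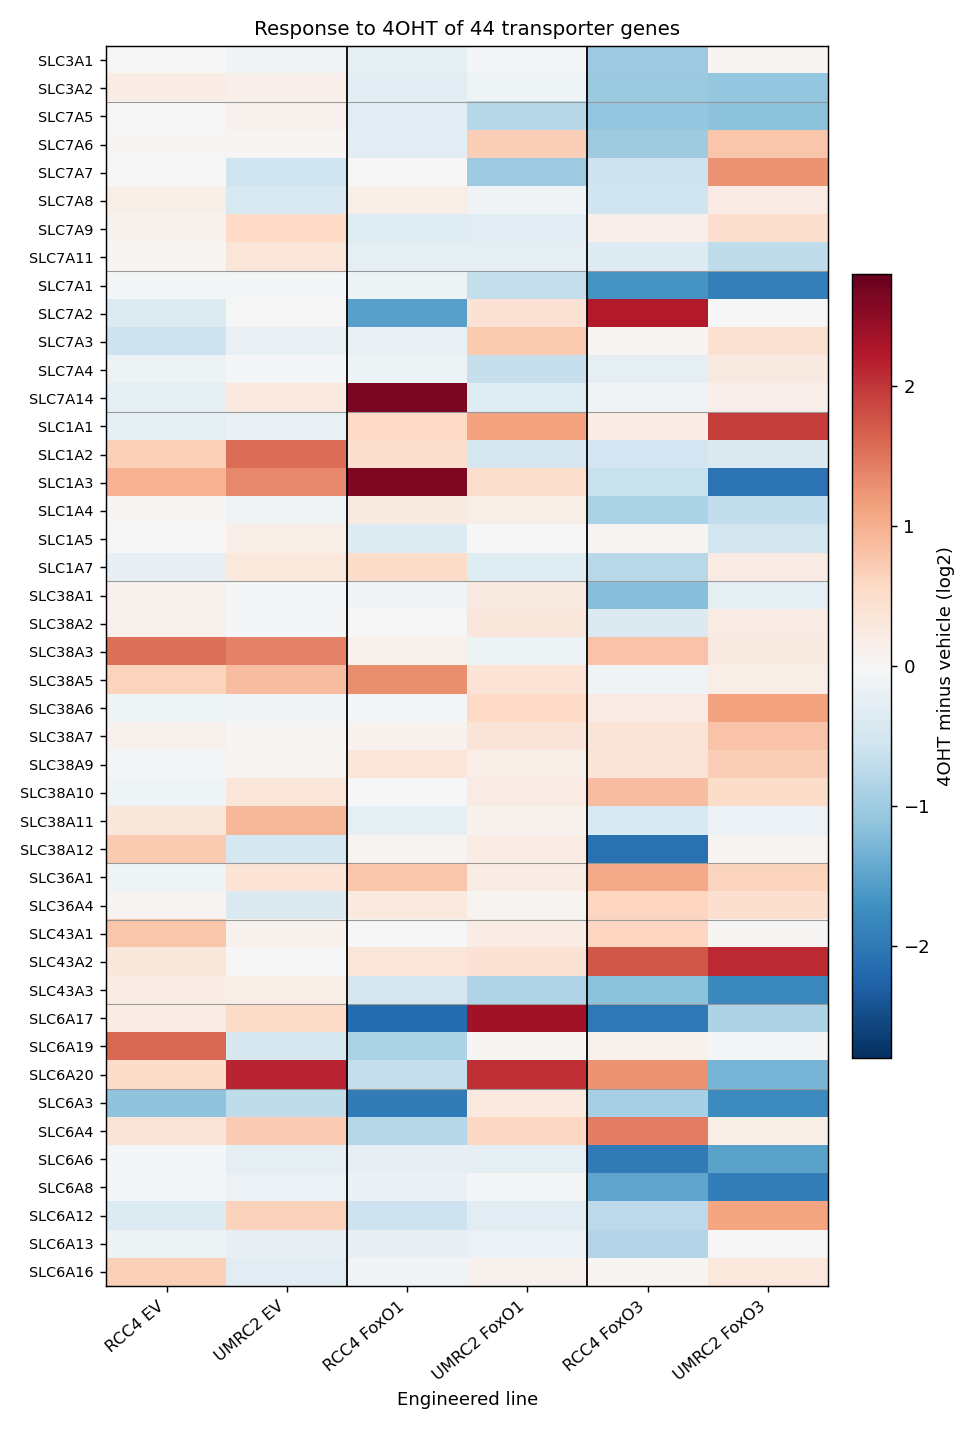
Response to 4OHT (log2, 4OHT minus vehicle; colour) of the 44 tested transporter genes (rows, grouped by role with lines between groups) in the 6 engineered lines (columns, EV left, FoxO1 middle, FoxO3 right). SLC3A2, SLC7A5, SLC7A1, SLC43A3, SLC6A6 and SLC6A8 are blue in both FoxO3 columns and near white in both EV columns.

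Without a FoxO fusion, 4OHT moved none of the transporter genes past the threshold. In the EV lines 0 of 44 transporter genes were called, as were 0% of all genes in either direction, and 1 of 44 had an unadjusted p under 0.05 (limma), against 2.37% of all genes. That gene was SLC38A3, a sodium-coupled glutamine carrier of the kidney, whose EV responses were 1.55 in RCC4 and 1.40 in UMRC2. Its vehicle levels in the EV lines, 4.73 and 4.58, were below those of all 4 fusion lines, 6.17 to 6.74, and its levels with 4OHT in EV were 6.28 and 5.99. The mean EV response over the 44 genes had a median of 0.07.

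Among the heavy chains, SLC3A2 fell and SLC3A1 did not pass the test. SLC3A2, known as CD98, carries several light chains to the plasma membrane. Its log2 level went from 11.47 with vehicle to 11.67 with 4OHT in RCC4 EV, from 11.72 to 11.41 in RCC4 FoxO1 and from 11.63 to 10.58 in RCC4 FoxO3. In UMRC2 it went from 10.61 to 10.75 in EV, from 10.26 to 10.15 in FoxO1 and from 10.38 to 9.29 in FoxO3. All 4 fusion responses lay below both EV responses, and the FoxO3 responses of the lines were close, -1.05 and -1.09. The effect was -0.81 ± 0.16 (SE, 2 cell lines per construct) in FoxO against EV (adjusted p = 0.0247) and -1.24 ± 0.18 in FoxO3 against EV (adjusted p = 0.00492). The call in FoxO against EV was kept in 2 of the 6 fits that each left out 1 engineered line, with adjusted p from 0.0194 to 0.148, and that in FoxO3 against EV in 6 of 6.

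SLC3A1, the heavy chain of the cystine and dibasic amino acid exchanger of the tubule, behaved unlike SLC3A2. Its level with vehicle was 12.19 to 12.24 in RCC4 and 11.20 to 11.39 in UMRC2. Its response was -1.02 in RCC4 FoxO3 but 0.05 in UMRC2 FoxO3, and between -0.28 and -0.02 in the other 4 lines. The only fall of size was therefore in the pair of arrays that differ in brightness, and the part of brightness in it was not tested.

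Of the 6 light chains tested, SLC7A5 fell and the other 5 were not called. SLC7A5 encodes LAT1, which brings leucine and other large neutral amino acids into the cell in exchange for glutamine. It went from 13.21 to 13.20 in RCC4 EV, from 13.34 to 13.02 in RCC4 FoxO1 and from 13.22 to 12.14 in RCC4 FoxO3. In UMRC2 it went from 12.37 to 12.50 in EV, from 11.75 to 10.95 in FoxO1 and from 11.99 to 10.84 in FoxO3. The 4 fusion responses, -0.32 to -1.15, were all below the EV responses of 0.00 and 0.13. The effect was -0.90 ± 0.15 in FoxO against EV (adjusted p = 0.0149; 1.87-fold lower) and -1.18 ± 0.17 in FoxO3 against EV (adjusted p = 0.00488; 2.26-fold lower). Near-identical pseudogene copies of SLC7A5 exist, and the probe set is annotated to SLC7A5 alone. SLC7A5 was also 1 of 3 transporter genes with an unadjusted p under 0.05 in FoxO1 against EV, at -0.62 ± 0.17 (adjusted p = 0.295).

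SLC7A11, the cystine and glutamate exchanger xCT, had negative effects in all 4 fusion lines but did not pass. It went from 12.30 to 12.02 in RCC4 FoxO1, from 12.28 to 11.91 in RCC4 FoxO3, from 8.67 to 8.42 in UMRC2 FoxO1 and from 9.13 to 8.41 in UMRC2 FoxO3. The EV responses were 0.06 and 0.34. The effect was -0.61 ± 0.19 in FoxO against EV (adjusted p = 0.0986) and -0.75 ± 0.22 in FoxO3 against EV (adjusted p = 0.0560). Of 2 further bright probe sets of the gene, 1 gave -0.63 and the other 0.04 in FoxO against EV.

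The remaining 4 light chains were not called, and their values did not keep 1 sign over the fusion lines. SLC7A6, an exchanger of cationic for neutral amino acids, had responses of -0.31 and -1.00 in the FoxO1 and FoxO3 lines of RCC4 and of 0.68 and 0.77 in those of UMRC2, so that its mean effect was 0.00 ± 0.33. SLC7A7, which performs a like exchange at the basolateral side of the tubule, had a response of -0.58 in RCC4 FoxO3 and 1.26 in UMRC2 FoxO3, where its levels, 6.42 and 7.69, lay on either side of the array median. SLC7A8 had effects of FoxO between -0.72 and 0.66 in the 4 fusion lines. SLC7A9 had FoxO1 effects of -0.41 in RCC4 and -0.87 in UMRC2 and FoxO3 effects of 0.06 and -0.06.

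Among the 5 cationic carriers, SLC7A1 fell and no other passed the test. SLC7A1 is CAT-1, the widely expressed arginine and lysine carrier. It went from 11.55 to 11.51 in RCC4 EV, from 11.61 to 11.47 in RCC4 FoxO1 and from 11.58 to 9.91 in RCC4 FoxO3. In UMRC2 it went from 12.38 to 12.32 in EV, from 11.95 to 11.28 in FoxO1 and from 12.09 to 10.17 in FoxO3. Both FoxO3 arrays with 4OHT lay below every other array of the gene, and the RCC4 FoxO1 response, -0.14, was within 0.10 of the RCC4 EV response. The effect was -1.05 ± 0.15 in FoxO against EV (adjusted p = 0.0109) and -1.74 ± 0.18 in FoxO3 against EV (adjusted p = 0.00180; 3.34-fold lower). The 3 other bright probe sets of SLC7A1 gave -1.76, -1.72 and -1.28 in FoxO3 against EV.

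SLC7A2, the inducible arginine carrier CAT-2, was at the floor in 5 of the 6 UMRC2 arrays, the sixth, FoxO1 with 4OHT, being at 4.61. Its RCC4 levels went from 7.79 to 7.41 in EV, from 8.77 to 7.26 in FoxO1 and from 7.90 to 10.11 in FoxO3. The highest value came from the RCC4 FoxO3 array with 4OHT, and no call was made (1.29 ± 1.01 in FoxO3 against EV, adjusted p = 0.456). SLC7A3 and SLC7A14, among the 5 highest by FoxO against EV at 0.64 and 0.58, were not called either (adjusted p = 0.446 and 0.770). SLC7A14 went from 5.70 to 5.43 in RCC4 EV, from 4.37 to 7.00 in RCC4 FoxO1 and from 6.18 to 6.09 in RCC4 FoxO3, and in UMRC2 from 5.47 to 5.75 in EV, from 6.37 to 6.01 in FoxO1 and from 6.57 to 6.71 in FoxO3. The RCC4 FoxO1 pair thus held both its lowest and its highest array. SLC7A3 went from 7.48 to 6.91 in RCC4 EV, from 7.02 to 6.81 in RCC4 FoxO1 and from 6.93 to 6.99 in RCC4 FoxO3, and in UMRC2 from 6.63 to 6.43 in EV, from 6.26 to 7.00 in FoxO1 and from 6.61 to 7.03 in FoxO3. Its levels lay close to the array median throughout. SLC7A4 ranged from 6.85 to 7.49 with a value of -0.11 in FoxO against EV.

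In the SLC1A family 1 of 6 tested genes fell in FoxO3 against EV, SLC1A4, and SLC1A1 had the largest positive effect of the 44 genes in FoxO against EV. SLC1A4, ASCT1, exchanges serine, alanine and other small neutral amino acids. It went from 10.37 to 9.48 in RCC4 FoxO3 and from 9.71 to 9.02 in UMRC2 FoxO3. In the FoxO1 lines it went from 10.49 to 10.74 and from 9.85 to 10.02, and in the EV lines from 10.42 to 10.47 and from 10.00 to 9.91. The FoxO3 responses were thus negative and the FoxO1 responses positive in either cell line. The effect in FoxO3 against EV was -0.76 ± 0.21 (adjusted p = 0.0474), and this call was lost in all 6 fits that left out 1 engineered line, with adjusted p from 0.0546 to 0.227. Its 4 other bright probe sets gave -0.99, -1.21, -0.52 and -0.23 in the same comparison.

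SLC1A1, the kidney and neuronal glutamate and aspartate carrier EAAT3, was higher after activation of either isoform without passing the threshold. It went from 8.53 to 8.27 in RCC4 EV, from 8.45 to 9.02 in RCC4 FoxO1 and from 8.08 to 8.29 in RCC4 FoxO3. In UMRC2 it went from 11.38 to 11.20 in EV, from 11.63 to 12.75 in FoxO1 and from 11.33 to 13.28 in FoxO3. All 4 fusion responses exceeded both EV responses, and the UMRC2 responses were the larger. The effect was 1.18 ± 0.32 in FoxO against EV (adjusted p = 0.0674) and 1.30 ± 0.37 in FoxO3 against EV (adjusted p = 0.0518). It was called without RCC4 EV (adjusted p = 0.0485), without RCC4 FoxO3 (0.00352) and without UMRC2 FoxO3 (0.0353), and the adjusted p was 0.468 without UMRC2 EV. A second probe set gave 0.72 in FoxO against EV.

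The glutamine carrier SLC1A5 (ASCT2) was not called. It stood between 12.41 and 12.77 on all 6 RCC4 arrays and between 11.10 and 11.69 on all 6 UMRC2 arrays, and its effects in the 4 fusion lines were -0.70 to 0.05. The glial glutamate carriers SLC1A2 and SLC1A3 were among the 5 lowest by FoxO against EV, at -1.37 ± 0.66 and -1.06 (adjusted p = 0.270 and 0.492). Both were dim, with 2 and 3 of 12 arrays at or above the array median. SLC1A2 went from 5.94 to 6.62 in RCC4 EV, from 6.42 to 6.86 in RCC4 FoxO1 and from 6.45 to 5.91 in RCC4 FoxO3, and in UMRC2 from 4.64 to 6.21 in EV, from 6.88 to 6.41 in FoxO1 and from 6.11 to 5.70 in FoxO3. SLC1A3 went from 6.22 to 7.19 in RCC4 EV, from 4.46 to 7.07 in RCC4 FoxO1 and from 5.56 to 4.93 in RCC4 FoxO3, and in UMRC2 from 4.76 to 6.11 in EV, from 5.95 to 6.44 in FoxO1 and from 7.18 to 5.11 in FoxO3. In both genes the EV lines were higher with 4OHT, and those responses enter each effect with their sign turned. SLC1A7 was not called either (-0.13).

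None of the 10 tested genes of the SLC38A family, sodium-coupled neutral amino acid carriers and their lysosomal relatives, was called in any of the FoxO comparisons. SLC38A1 and SLC38A2 are glutamine carriers known as SNAT1 and SNAT2. SLC38A1 was between 12.60 and 13.10 on 11 arrays if RCC4 FoxO3 with 4OHT, at 11.61, is set aside; its response there was -1.19 and in UMRC2 FoxO3 -0.27. SLC38A2 stood between 11.87 and 12.49 on all 12 arrays. SLC38A6 was among the 5 highest by FoxO against EV at 0.56 (adjusted p = 0.186): it went from 8.67 to 9.81 in UMRC2 FoxO3 and from 8.64 to 9.20 in UMRC2 FoxO1, but from 11.01 to 11.22 and from 10.89 to 10.85 in the same lines of RCC4, and in the EV lines from 11.14 to 11.03 in RCC4 and from 8.64 to 8.57 in UMRC2. SLC38A9, a lysosomal arginine sensor of mTORC1, had effects of 0.11 to 0.61, positive in all 4 fusion lines and not called. SLC38A3 was among the 5 lowest at -1.22 (adjusted p = 0.274), where the EV responses already given were the largest of its 6 responses; it went from 6.74 to 6.88 and from 6.48 to 7.28 in RCC4 FoxO1 and FoxO3 and from 6.47 to 6.31 and from 6.17 to 6.43 in those of UMRC2. The other 5, SLC38A5, SLC38A7, SLC38A10, SLC38A11 and SLC38A12, had values of -0.83 to 0.33. In the SLC36A family, amino acid carriers of lysosomes and other membranes, SLC36A1 and SLC36A4 had values of 0.53 and 0.52 in FoxO against EV and were not called.

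The SLC43A family held both the transporter gene that rose and 1 of the clearest falls. SLC43A2, LAT4, is a facilitated carrier of branched-chain amino acids and phenylalanine. It went from 7.93 to 9.66 in RCC4 FoxO3 and from 6.87 to 8.95 in UMRC2 FoxO3. In the FoxO1 lines it went from 7.67 to 7.99 and from 6.59 to 6.99, and in the EV lines from 7.62 to 7.94 and from 6.84 to 6.82. Both FoxO3 arrays with 4OHT were above the other 10 arrays, and the FoxO1 responses, 0.33 and 0.40, were near the RCC4 EV response of 0.32. The FoxO1 effect was 0.21 on this probe set and 0.96 on a second bright one. SLC43A2 rose in FoxO3 against EV by 1.76 ± 0.37 (adjusted p = 0.0187, 3.38-fold), and the second probe set gave 2.06. The call was kept in 3 of 6 fits without 1 engineered line, with adjusted p from 0.0224 to 0.143.

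SLC43A3, a nucleobase carrier of the same family, was lower with 4OHT in every fusion line. It went from 8.98 to 9.18 in RCC4 EV, from 9.24 to 8.78 in RCC4 FoxO1 and from 9.16 to 8.02 in RCC4 FoxO3. In UMRC2 it went from 12.33 to 12.50 in EV, from 12.54 to 11.68 in FoxO1 and from 12.58 to 10.78 in FoxO3. The fusion responses, -0.47 to -1.80, lay below the EV responses of 0.20 and 0.17 without overlap. The effect was -1.25 ± 0.19 in FoxO against EV (adjusted p = 0.0119), -0.84 ± 0.22 in FoxO1 against EV (adjusted p = 0.262) and -1.66 ± 0.22 in FoxO3 against EV (adjusted p = 0.00351). A second probe set gave -1.40 for FoxO3 but -0.01 for FoxO1. SLC43A1, the third member, was not called (-0.22).

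Of the SLC6A genes, the taurine carrier SLC6A6 and the creatine carrier SLC6A8 fell and the 3 tested carriers of protein amino acids did not pass the test. SLC6A6 went from 11.96 to 9.98 in RCC4 FoxO3 and from 10.85 to 9.35 in UMRC2 FoxO3. In the EV lines it went from 12.09 to 12.06 and from 10.92 to 10.65, and in the FoxO1 lines from 11.99 to 11.75 and from 10.74 to 10.46. On the probe set used, the FoxO1 and EV responses overlapped, and the FoxO3 responses stood apart. In FoxO1 against EV this probe set gave -0.11, and the 3 other bright probe sets of SLC6A6 gave -0.94, -0.68 and -0.07. The effect was -0.85 ± 0.18 in FoxO against EV (adjusted p = 0.0360) and -1.59 ± 0.21 in FoxO3 against EV (adjusted p = 0.00374; 3.01-fold lower), and its 3 other bright probe sets gave -3.00, -1.77 and -1.66 for FoxO3. The call in FoxO against EV was kept in 2 of 6 fits without 1 engineered line and lost without either EV or either FoxO1 line, with adjusted p up to 0.240.

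SLC6A8 had the same form. It went from 12.45 to 10.98 in RCC4 FoxO3 and from 11.22 to 9.28 in UMRC2 FoxO3, in the EV lines from 12.56 to 12.51 and from 11.48 to 11.32, and in the FoxO1 lines from 12.59 to 12.41 and from 11.11 to 11.07. The effect was -0.80 ± 0.16 in FoxO against EV (adjusted p = 0.0279) and -1.60 ± 0.19 in FoxO3 against EV (adjusted p = 0.00250). The call in FoxO against EV was kept in 3 of those 6 fits and lost without either EV line or RCC4 FoxO1, with adjusted p up to 0.173. In UMRC2 the FoxO1 response was above that of EV by 0.12, so the effect was negative in 3 of 4 fusion lines. In FoxO1 against EV the probe set used gave -0.01, and the 2 other bright probe sets of SLC6A8 gave -0.35 and -0.23. In FoxO3 against EV those 2 gave -1.25 and -1.15, smaller falls than on the probe set used. The difference between the isoforms was thus smaller on them. A probe set shared with SLC6A8 pseudogene copies gave -1.38 for FoxO3, and signal from such copies cannot be told apart from the gene on a shared probe set. SLC6A17, SLC6A19 and SLC6A20 were dim, with 4, 9 and 4 arrays at or above the median and effects in FoxO against EV of -0.77 to -1.04. The other 5 tested SLC6A genes, carriers of transmitters and osmolytes and 1 orphan, had values of -0.26 to -0.08 and were not called.

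**Figure D2:**
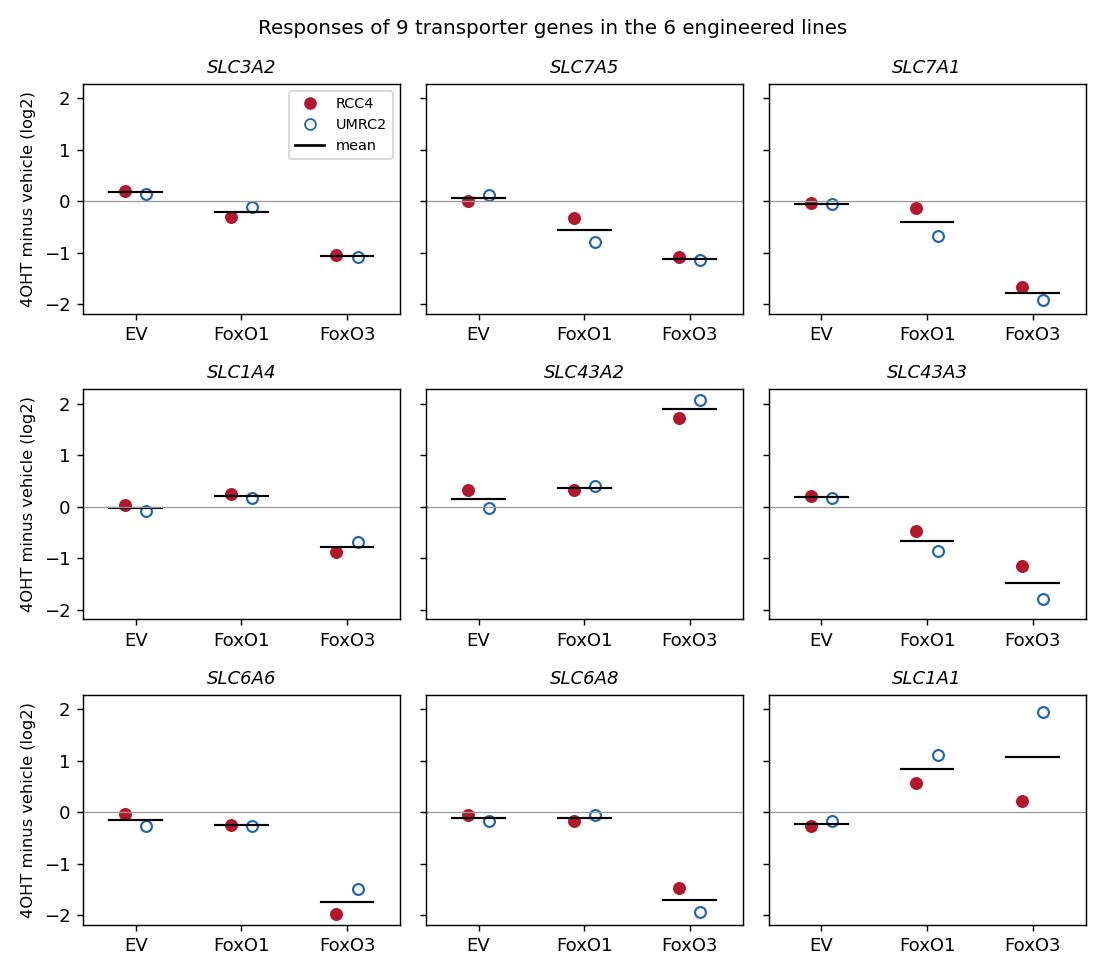
Response to 4OHT (log2, 4OHT minus vehicle) of 9 transporter genes in the EV, FoxO1 and FoxO3 lines of RCC4 (filled) and UMRC2 (open); bars are the mean of the 2 cell lines. On the probe sets shown, the FoxO1 points of SLC6A6, SLC6A8, SLC1A4 and SLC43A2 lie near EV and the FoxO3 points lie apart. Some other bright probe sets of SLC6A6 and SLC43A2 had larger FoxO1 effects. SLC7A5 and SLC43A3 step from EV to FoxO1 to FoxO3.

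The isoforms differed for 5 of the 44 transporter genes. FoxO3 against FoxO1, tested as a difference within the same fit, called 5 genes lower with FoxO3 (11.4%) and 0 higher, beside 3.65% and 2.17% of all genes. They were SLC6A8 at -1.59 ± 0.19 (adjusted p = 0.0108), SLC7A1 at -1.39 ± 0.18 (adjusted p = 0.0123), SLC6A6 at -1.48 ± 0.21 (adjusted p = 0.0168), SLC3A2 at -0.86 ± 0.18 (adjusted p = 0.0382) and SLC1A4 at -1.00 ± 0.21 (adjusted p = 0.0388). In each of the 5, FoxO3 was lower than FoxO1 in both cell lines, by 0.74 to 1.74 in RCC4 and by 0.86 to 1.90 in UMRC2. SLC6A8 kept the call in 6 of 6 fits without 1 engineered line, SLC6A6 and SLC7A1 in 5, SLC1A4 in 3 and SLC3A2 in 2. Fewer of the 44 genes were called without the RCC4 FoxO1 line, the one with the least fusion transcript, and without UMRC2 FoxO1. With the intensities as deposited 0 were called. The share of all genes called in these settings is not given. On the 2 other bright probe sets of SLC6A8 the difference between the isoforms was smaller.

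SLC43A2 was 1.54 ± 0.37 higher with FoxO3 than with FoxO1 (adjusted p = 0.0566), and SLC43A3 and SLC7A5 were -0.82 and -0.55 (adjusted p = 0.0744 and 0.107). FoxO1 against EV called 0 of the 44 genes, with 3 at an unadjusted p under 0.05 (limma), beside 0.0840% of all genes called higher and 0% lower. Those 3 were SLC43A3, SLC7A5 and SLC1A1, the last at 1.06 ± 0.37. The median FoxO1 effect over the 44 genes was -0.06, against -0.02 for all genes.

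**Figure D3:**
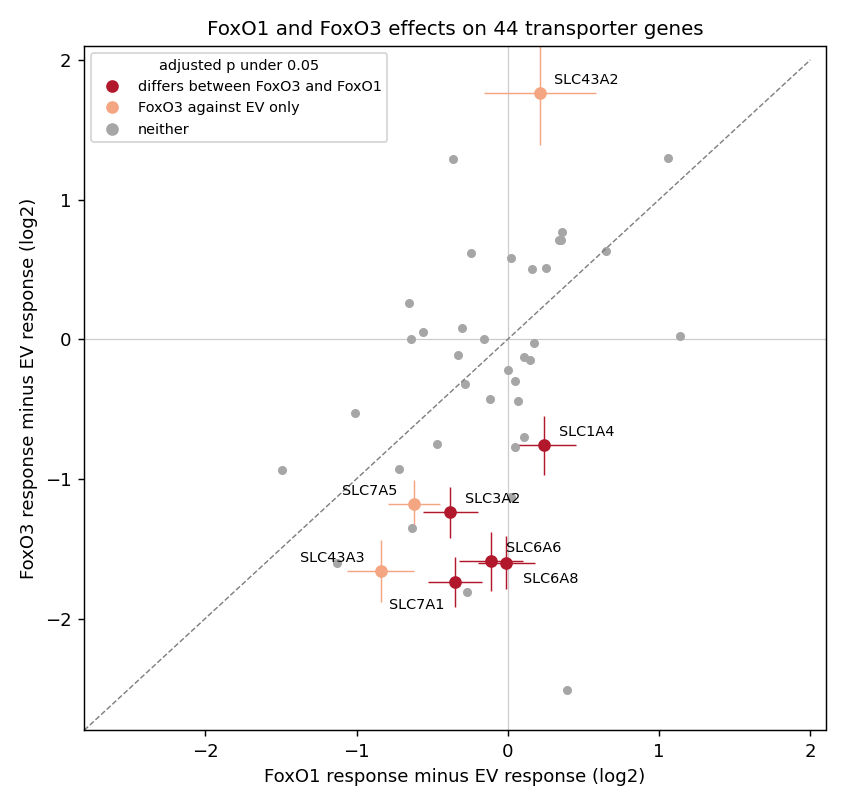
FoxO1 effect (x axis) and FoxO3 effect (y axis) against EV, in log2, for the 44 tested transporter genes; bars are standard errors of the fit, shown for genes called in FoxO3 against EV, and the dashed line marks equal effects. SLC6A8, SLC6A6, SLC7A1, SLC3A2 and SLC1A4 lie below the line, where FoxO3 against FoxO1 was called, and both axes share the EV arrays.

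In the 6 vehicle arrays, with the 3 engineered lines of a parent as its replicates, 19 of the 44 transporter genes were higher in RCC4 and 5 were higher in UMRC2, where 27.4% and 24.0% of all genes were; the share called in either direction, 54.5%, was near the 51.4% of all genes. The median difference, RCC4 minus UMRC2, was 0.41 for the transporter genes and 0.06 for all genes. All vehicle arrays of RCC4 were brighter than those of UMRC2 in the deposited values, so line and brightness cannot be told apart. With the values taken as deposited the split was 32 higher and 3 lower. In that setting the median of all genes was 0.77, and the share of all genes called is not given. The 3 lines of a parent are not independent samples of a tissue, and levels are compared here within a gene, not between genes.

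**Figure D4:**
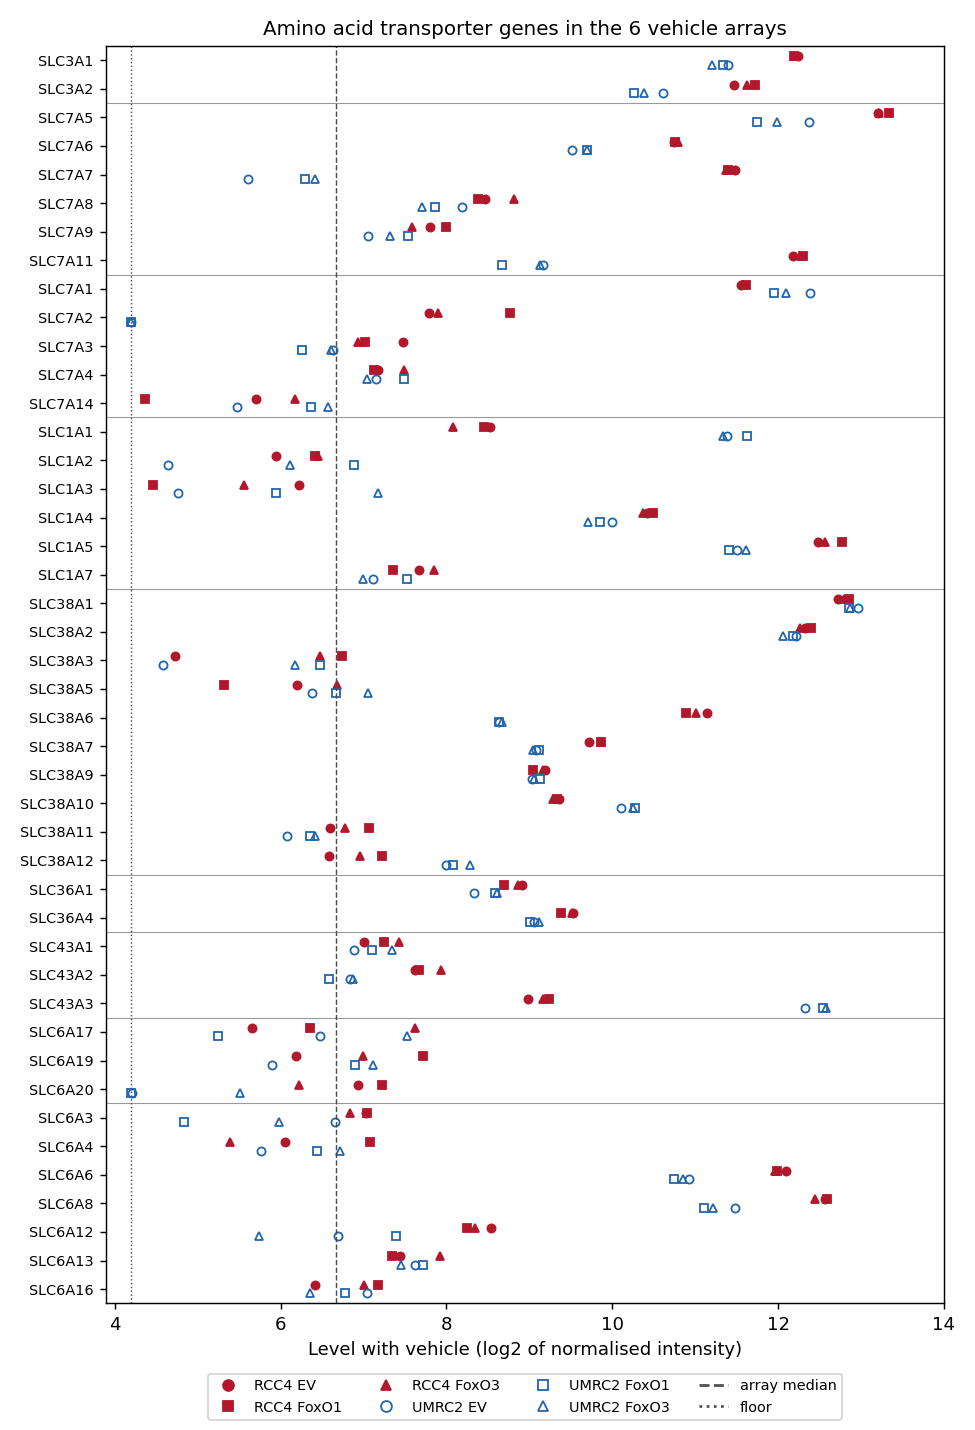
Log2 level with vehicle of the 44 tested transporter genes in the EV (circle), FoxO1 (square) and FoxO3 (triangle) lines of RCC4 (filled) and UMRC2 (open); dashed and dotted lines mark the array median and the floor. SLC7A7, SLC7A2, SLC7A11 and SLC38A6 are higher in RCC4 and SLC43A3 and SLC1A1 in UMRC2; positions of different genes are not comparable, since each has its own probe set.

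Among the 19 genes higher in RCC4 were both heavy chains, 5 of the 6 light chains and 1 of the 5 cationic carriers. The others were 2 SLC1A, 3 SLC38A, 1 SLC36A and 1 SLC43A gene, 1 SLC6A amino acid carrier and 3 SLC6A carriers of other substrates. Of all genes, 27.4% were higher in RCC4. SLC7A7 stood at 11.42 ± 0.06 (SD, n = 3) in RCC4 and 6.11 ± 0.43 in UMRC2, a difference of 5.31 (adjusted p = 2.61e-07). SLC7A11 stood at 12.18, 12.28 and 12.30 in RCC4 and at 8.67, 9.13 and 9.16 in UMRC2, a 9.64-fold difference (adjusted p = 3.25e-07). Neither gene had overlapping lines. SLC7A2 was at 7.79, 7.90 and 8.77 in RCC4 and at the floor of 4.20 in all 3 UMRC2 arrays, so RCC4 was at least 15.5-fold higher (a log2 difference of 3.95, adjusted p = 2.86e-05). That bound moves with the floor and the probe set: the log2 difference was 4.75 and 2.99 with the floor at the 10th and 30th percentile, 2.33 over the mean of its probe sets and 2.23 on its other bright probe set. SLC38A6 was 11.01 ± 0.13 in RCC4 and 8.65 ± 0.02 in UMRC2 (adjusted p = 2.46e-07). SLC6A20, a proline carrier of the tubule, was 6.80 ± 0.52 in RCC4 and 4.64 ± 0.75 in UMRC2 (adjusted p = 0.00701), with 1 of the UMRC2 arrays at the floor. SLC7A2 and SLC6A20 were at or above the array median in 6 and 4 arrays, all of RCC4. SLC7A7 was so in 7 arrays, of which UMRC2 FoxO3 with 4OHT was the only one of UMRC2. These genes thus passed the level rule through the line in which they were higher. Their p-values here are not independent of that rule.

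SLC3A2, SLC7A5, SLC6A6 and SLC6A8, which fell with FoxO, were 2.26- to 2.40-fold higher in RCC4, and their FoxO3 responses were -1.05 or lower in both lines. Higher in UMRC2 were SLC43A3 at 12.48 ± 0.13 against 9.13 ± 0.14 (adjusted p = 6.17e-08), SLC1A1 at 11.45 ± 0.16 against 8.36 ± 0.24 (adjusted p = 5.77e-07), SLC38A12 at 8.12 ± 0.15 against 6.92 ± 0.32 (adjusted p = 0.00143), SLC38A10 and SLC7A1. SLC38A10 differed by -0.88 on the probe set used, but its 3 other bright probe sets gave 1.19, 0.01 and -0.71, so its direction depends on the probe set. SLC7A14, next in size, was not called at -0.72 (adjusted p = 0.321).

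Whether the FoxO effect itself differed between RCC4 and UMRC2 was tested as a product term, and no transporter gene passed: 0 of 44 were called and 1 had an unadjusted p under 0.05 (limma), where 0% of all genes were called and 2.37% had such a p. The 1 gene was SLC6A19, a neutral amino acid carrier of the tubule, at -2.44 ± 0.94 (adjusted p = 1), whose RCC4 EV vehicle array, 6.19, was below the other 5 RCC4 arrays. The FoxO1 and FoxO3 effects of a cell line subtract the same EV response. For 9 of the 44 genes both effects had one sign in RCC4 and the other in UMRC2, and the share of all genes was not counted. The clearest by p among them after SLC6A19 was SLC7A6, whose effects were -0.34 and -1.03 in RCC4 and 0.65 and 0.74 in UMRC2 (difference -1.38 ± 0.60, adjusted p = 1). This test takes FoxO1 and FoxO3 as the replicates of a cell line, so its standard error holds the difference between the isoforms. It was 1.10 for SLC7A1, which differed between the isoforms, and 0.53 for SLC7A11.

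Genes that work beside the transporters were read from lists of gene names. Of 29 tested genes of the amino acid response and ATF4 targets, 6 fell and 2 rose in FoxO against EV, and 12 fell and 2 rose in FoxO3 against EV. These are 27.6% and 48.3% called in either direction, beside 7.79% and 16.6% of all genes. ATF4 itself, the transcription factor of this response, stood between 13.14 and 13.44 on all 12 arrays (0.07 ± 0.09 in FoxO against EV, adjusted p = 0.733). TRIB3, a pseudokinase that ATF4 induces, fell by 1.93 on the log2 scale in FoxO against EV (adjusted p = 0.00705), from 12.54 to 9.17 in RCC4 FoxO3 and from 12.54 to 9.95 in UMRC2 FoxO3. DDIT4, an inhibitor of mTORC1, fell by 1.71 (adjusted p = 0.0114). NUPR1 and HERPUD1, stress-response genes, rose by 2.20 and 1.63 (adjusted p = 0.00608 each). In FoxO3 against EV the fallen genes included MTHFD2 and ALDH18A1, enzymes of mitochondrial folate and proline synthesis, at -2.00 and -1.67, and ASNS, asparagine synthetase, at -0.89. The list median was -0.26 in FoxO against EV and -0.69 in FoxO3 against EV.

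MYC, a factor known to bind the letters capitalised in the SLC7A5 window, fell. It went from 12.10 to 10.37 in RCC4 FoxO1, from 12.14 to 9.04 in RCC4 FoxO3, from 12.51 to 10.50 in UMRC2 FoxO1 and from 12.81 to 11.14 in UMRC2 FoxO3, with EV responses of 0.06 and 0.13. The effect was -2.22 ± 0.32 in FoxO against EV (adjusted p = 0.00997). Of the 10 tested transporter genes with a CACGTG match, SLC7A5 alone was called in a FoxO comparison. Of all genes, 7.79% were called in either direction in FoxO against EV and 16.6% in FoxO3 against EV. The uncalled genes with a match ranged in FoxO against EV from -0.30 (SLC1A5) to 0.53 (SLC36A1). SLC1A5, SLC38A5, SLC43A1, SLC1A7 and SLC6A16 were below 0, and SLC36A1, SLC38A7, SLC7A7 and SLC7A8 were above 0. The part of MYC in these values was not tested.

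Of 32 tested genes of amino acid sensing to mTORC1, 3 rose and 3 fell in FoxO against EV, and 4 rose and 4 fell in FoxO3 against EV. These are 18.8% and 25% called, beside 7.79% and 16.6% of all genes. CASTOR2, a relative of the arginine sensor CASTOR1, rose by 3.06 ± 0.36 (adjusted p = 0.00638), with responses of 1.74 and 2.40 in the FoxO1 lines and 2.70 and 4.56 in the FoxO3 lines. NPRL2 and SEH1L, subunits of the GATOR complexes, fell by 1.95 and 1.28 (adjusted p = 0.0328 and 0.00774), and LARS1, the leucyl-tRNA synthetase, fell by 0.88 (adjusted p = 0.0184). NPRL2 was at the floor of 4.20 in UMRC2 FoxO3 with 4OHT, so the size of its fall there is a lower bound. The list median was 0.14.

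Of 18 tested carriers and partners outside the rule, CLTRN rose and SLC25A15 fell in FoxO against EV, 11.1% beside 7.79% of all genes. CLTRN, collectrin, is the partner that carries SLC6A19 and related carriers to the surface of tubule cells. It went from 7.70 to 11.90 in RCC4 FoxO1, from 7.35 to 12.39 in RCC4 FoxO3, from 5.87 to 10.58 in UMRC2 FoxO1 and from 4.95 to 10.38 in UMRC2 FoxO3, with EV responses of -0.23 and -0.83. The 4 fusion arrays with 4OHT were all above the other 8 arrays, and the effect was 5.37 ± 0.33 (adjusted p = 0.00216); CLTRN was the 1 gene of the list called in FoxO1 against EV, at 4.99 (adjusted p = 0.0304). SLC6A19 itself was not called: its FoxO effects were -2.50 and -1.48 in RCC4 and 0.49 and 0.42 in UMRC2. SLC25A15, the mitochondrial ornithine carrier, fell by 1.89 (adjusted p = 0.0305).

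Of 17 tested genes of glutamine, glutamate and cystine use, 2 rose and 2 fell in FoxO against EV, 23.5% beside 7.79% of all genes. GLUL, glutamine synthetase, rose by 1.07 (adjusted p = 0.0141) and went from 11.55 to 13.59 in RCC4 FoxO3 and from 13.09 to 14.21 in UMRC2 FoxO3. GLUD1, glutamate dehydrogenase, rose by 0.60 (adjusted p = 0.0313). GCLM, a subunit of the first enzyme of glutathione synthesis, fell by 0.79 (adjusted p = 0.0283), and GLDC, of glycine cleavage, by 1.76 (adjusted p = 0.00608).

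The 12 transporter genes that were not tested were SLC1A6, SLC38A4, SLC6A2, SLC6A5, SLC6A7, SLC6A9, SLC6A11, SLC6A14, SLC6A15, SLC6A18, SLC7A10 and SLC7A13. SLC6A7, a proline carrier of neurons, was at the floor in all 12 arrays, and SLC38A4 in all 6 UMRC2 arrays. At the edge of the level rule, SLC1A2 and SLC7A14 passed with 2 arrays at or above the median and SLC6A5 missed it with 1. Of the 6 antisense and opposite-strand genes, 4 were tested and none was called in the FoxO comparisons; SLC7A6OS was 0.45 higher in RCC4 than in UMRC2 with vehicle (adjusted p = 0.0254).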

How the data were processed

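Per the labels and the submitters' processing notes, the authors hybridised biotin-labelled cRNA of 12 cultures and processed the arrays with MAS5 (version not given in the sources used here); the deposited values are linear intensities per probe set, with a scaling target that is not stated, and the arrays differ in brightness. The intensities of 54675 probe sets were quantile-normalised between the 12 arrays, set to a floor at the 20th percentile (intensity 18.4, log2 4.20) and taken to log2. GEO's platform annotation gave 1 gene symbol to 41091 probe sets, several to 1801 and none to 11721; 62 control probe sets were left out. Each gene was read from its probe set with the highest mean, and tested if at or above the array median in at least 2 arrays.

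A linear model of the 6 responses on construct and cell line was fitted with limma 3.58.1 under R 4.3.3, with an eBayes trend on mean level, and the 6 vehicle arrays with cell line alone; 2 and 4 residual degrees of freedom were left. The tests were two-sided, with Benjamini-Hochberg adjustment over 14283 genes and a threshold of 0.05, and the fit was tested on simulated data. No arrays repeat a combination, and no 2 arrays held identical columns. Precision is limited by the number of arrays.

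The members and lists were chosen with earlier results of these data known. Values in every array are given for members called in a FoxO comparison, and for the 5 highest and 5 lowest by FoxO against EV; the 4 with the highest mean level and the 5 that differ most each way between the lines are given in every array or by range or mean; the other genes named are given as ranges, as genes of the fixed lists (up to 4 of each, and MYC, ATF4 and CLTRN), or after their values were seen (SLC3A1, SLC7A6, SLC7A8, SLC7A9, SLC7A11, SLC7A4, SLC1A7, SLC43A1, the other SLC38A genes, SLC38A9, SLC36A1, SLC36A4, MTHFD2, ALDH18A1, ASNS, the dim SLC6A genes). Motifs were searched in the RefSeq promoter windows on both strands. Alternatives covered scaling, floor, filter, probe set, prior variance, the line term, the 4OHT arrays and leaving out each engineered line.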

Additional observations from a re-analysis of the deposited data

Results flagged for a closer look

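The response differed between the isoforms, by the test of the difference itself, for 5 transporter genes, FoxO3 minus FoxO1 being -1.59 for SLC6A8, -1.48 for SLC6A6, -1.39 for SLC7A1, -1.00 for SLC1A4 and -0.86 for SLC3A2 on the log2 scale. On the 2 other bright probe sets of SLC6A8 the difference was smaller. The FoxO3 lines also held more fusion transcript, and its part in the difference between the isoforms was not tested. In 9 transporter genes both FoxO effects had one sign in RCC4 and the other in UMRC2, a pattern whose share over all genes was not counted. RCC4 minus UMRC2 was -2.44 for SLC6A19, -2.39 for SLC38A12, -1.38 for SLC7A6, -1.20 for SLC6A16, -0.87 for SLC7A8, -0.70 for SLC3A1, -0.65 for SLC38A2, -0.53 for SLC6A13 and 1.92 for SLC7A14. The product term of the fit gave unadjusted p from 0.0442 to 0.491 for these 9 (limma), and none passed after adjustment.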

How the results depend on the processing

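The labels give no replicate numbers to block on. Vehicle and 4OHT arrays were paired by engineered line in the fits of responses, and not in RCC4 against UMRC2, which used the vehicle arrays alone. Of the 44 transporter genes, the count called in FoxO against EV (6) went to 0 with the values as deposited, 0 with no filter and 0 with a constant prior variance, and ranged from 0 (without UMRC2 EV) to 9 over the fits that left out 1 engineered line; it was 3 without RCC4 FoxO1. In FoxO3 against EV (8) the same settings gave 4, 0 and 0, and leaving out a line gave 7 to 11. In FoxO3 against FoxO1 (5) they gave 0, 0 and 0, the mean of all probe sets gave 1, and leaving out a line gave 1 (without RCC4 FoxO1) to 6, with 3 without UMRC2 FoxO1. No filter and a constant prior variance called 0 genes of any kind in these 3 comparisons, with 10 and 14 transporter genes at an unadjusted p under 0.05 in FoxO against EV (limma). RCC4 against UMRC2 (24) gave 7 with the 4OHT arrays. Apart from no filter and a constant prior variance, the share of all genes called in these settings is not given. The counts are therefore not results about the transporter genes alone. The cause of these shifts was not tested. Taken as deposited, the median of all genes moved to -0.31 in FoxO against EV, -0.42 in FoxO3 against EV and 0.77 in RCC4 against UMRC2. Directions reversed for SLC7A14 in FoxO against EV, -0.38 without RCC4 EV and -0.26 without RCC4 FoxO1 (range -0.38 to 1.54), for SLC1A3, 0.02 without UMRC2 EV (range -2.13 to 0.02), and for SLC7A14 between the lines, 0.02 with the 4OHT arrays. No call of a named gene reversed under the alternatives run. SLC3A2, SLC43A3, SLC6A6, SLC6A8, SLC7A1 and SLC7A5 kept their call in FoxO3 against EV in 6 of 6 fits without 1 engineered line.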
